A study of Mus musculus with 4 samples.

Results

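The genes described here build and control the mitotic spindle and carry a cell through division. The list names 46 genes: mitotic cyclins and kinases, spindle checkpoint and anaphase regulators, the chromosomal passenger complex, kinetochore proteins, spindle motors, cytokinesis factors, and condensin with topoisomerase II alpha. They were found by gene symbol in the annotation of the array. Of the 46, 43 had at least 1 probe set, of 12394 named genes in all, and Ccnb1, Espl1 and Cdca8 were not analysed here. The 43 genes had 80 probe sets, and each gene is given by its brightest probe set, judged by the mean of all 4 arrays.

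Embryonic fibroblasts of mouse strain C57/BJ6 gave the RNA for 4 Affymetrix arrays. The gene under study, Npm1, encodes nucleophosmin, which sits mainly in the nucleolus, works in ribosome assembly and also binds centrosomes. For each of the genotypes Npm1+/- and Npm1+/+, 1 array measured total RNA and 1 measured RNA from the ribosome-bound fraction, called polysome RNA here. The labels do not say how many embryos stood behind a culture, which passage was used or how the Npm1 allele was made. With 1 array in each of the 4 groups there is no replicate, so no p-value or standard deviation between samples is given, and each difference compares 2 arrays. The only spread that the files hold is the one between probe sets of the same gene. Over the 2489 genes with several usable probe sets, the standard deviation of the genotype difference between a gene's 2 brightest probe sets was 0.31 log2 for total and 0.28 log2 for polysome arrays.

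All values are log2 signals as deposited. A log2 signal of 7.53, the median of all values, is used below as the line between brighter and dimmer probe sets. Array medians lay between 7.47 and 7.59. The fibroblast label went with its markers: 12 of 12 fibroblast markers were at or above that line on all 4 arrays. Over all named genes, 54.6% had a mean at or above it. The medians of the 12 markers were between 12.91 and 13.08 on the 4 arrays. Of 5 epithelial markers, 1 reached the line on each total array and 0 on each polysome array, and of 4 endothelial markers 1 and 0. The genotype label could not be checked in the same way, since the brighter Npm1 probe set read 11.96 on the Npm1+/- array and 11.91 on the Npm1+/+ array for total RNA, and 12.84 against 12.93 for polysome RNA, and the other probe set differed by 0.07 and 0.06 log2. No source used here says where that probe set lies relative to the deleted part, and every direction below therefore belongs to the library labelled Npm1+/- against the library labelled Npm1+/+. Other RNAs also moved with the genotype label. All 7 genes of a list of nuclear and non-coding RNAs were lower in Npm1+/-, with a median of -1.90 log2 in total RNA and -1.81 log2 in polysome RNA. Of these, 6 and 5 were at least 2-fold lower (background 0.879% and 0.71% of all named genes), while Malat1 differed by only -0.18 and -0.01 log2. Of 14 macrophage markers, 14 were above 0 in total RNA and 11 in polysome RNA, against 6403 and 6552 of 12394 named genes. The medians of these markers were 0.18 and 0.19 log2, smaller than the spread between probe sets. On each total array, 3 of the 14 reached 7.53. A repeat-element control (B1) stood at 10.26 in Npm1+/- and 13.43 in Npm1+/+ total RNA and at 10.19 and 13.47 in polysome RNA, and the part of these RNAs in the results below was not tested. The 3' minus 5' difference of the beta-actin controls was 0.02 in Npm1+/- and 0.06 in Npm1+/+ total RNA, and 0.05 and 0.01 in polysome RNA. Between the genotype labels this 3' minus 5' value differed by -0.26 and 0.13 for the transferrin receptor controls in total and polysome RNA, by -0.21 and -0.14 for pyruvate carboxylase, and by 0.13 and 0.07 for Gapdh.

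At mitotic entry, cyclin B bound to Cdk1 phosphorylates chromosomes, the nuclear envelope and the microtubule machinery, and the chromosomes condense. The spindle assembly checkpoint holds the anaphase-promoting complex in check until every kinetochore is attached to microtubules, after which cyclin and securin are degraded, sister chromatids part and the cell cleaves. Most of these genes are transcribed in G2 and M phase, through the MuvB core with B-Myb and Foxm1 at CHR (cell cycle genes homology region) elements and through NF-Y at CCAAT boxes, and their mRNAs are low in cells that have left the cycle. In a bulk culture, fewer dividing cells and less of an mRNA in each dividing cell cannot be told apart.

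Both promoter motifs were common among these genes. In a window of 250 bases before to 50 bases after the start, from RefSeq (GRCm38.p6), 38 of the 46 genes had a sequence. TTTGAA, the CHR core, was present on either strand in 29 of the 38 (76.3%), against 20.2% of 27025 genes with such a window. CCAAT on either strand was in 29 of 38 (76.3%) against 41.1%, and both motifs together were in 26 of 38 (68.4%) against 7.97%. A 6-letter match is a description of the letters and not a measured binding site.

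The next 7 promoter stretches show the motifs in genes from both sides of 0 that were chosen for holding both. They run from 120 bases before to 30 bases after the start, where both motifs occurred in 19 of the 38 genes (50%) against 2.41% of all genes. They were taken from the 14 measured genes with a single start and both motifs in the stretch. Genes with larger differences, such as Smc2 and Nusap1, were not among the 14. Printed are the 4 of the 14 with the most negative genotype difference in total RNA (Top2a, Kif23, Hmmr, Cenpf) and the only 3 above 0 (Ccnb2, Ube2c, Cdk1). Each is written 5′ to 3′ on the strand of its gene, and capitals mark TTTGAA or CCAAT and their reverse complements TTCAAA and ATTGG.
Top2a: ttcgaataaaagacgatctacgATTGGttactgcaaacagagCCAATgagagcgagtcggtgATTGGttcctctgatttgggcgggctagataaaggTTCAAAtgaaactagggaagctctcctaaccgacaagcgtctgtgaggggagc
Kif23: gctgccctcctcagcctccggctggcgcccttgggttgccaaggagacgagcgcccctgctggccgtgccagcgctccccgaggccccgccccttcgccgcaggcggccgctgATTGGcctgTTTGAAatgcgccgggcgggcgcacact
Hmmr: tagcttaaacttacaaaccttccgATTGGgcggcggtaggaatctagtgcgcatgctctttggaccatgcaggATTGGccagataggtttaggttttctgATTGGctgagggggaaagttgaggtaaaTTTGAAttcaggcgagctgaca
Cenpf: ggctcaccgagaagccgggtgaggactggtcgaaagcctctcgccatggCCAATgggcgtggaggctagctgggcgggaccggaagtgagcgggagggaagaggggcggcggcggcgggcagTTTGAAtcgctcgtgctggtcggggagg
Ccnb2: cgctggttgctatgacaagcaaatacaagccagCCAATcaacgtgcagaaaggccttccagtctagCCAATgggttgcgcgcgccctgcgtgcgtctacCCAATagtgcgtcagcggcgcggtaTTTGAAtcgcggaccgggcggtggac
Ube2c: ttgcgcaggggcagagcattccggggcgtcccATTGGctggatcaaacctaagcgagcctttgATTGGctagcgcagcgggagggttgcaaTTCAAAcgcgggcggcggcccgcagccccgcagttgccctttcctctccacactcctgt
Cdk1: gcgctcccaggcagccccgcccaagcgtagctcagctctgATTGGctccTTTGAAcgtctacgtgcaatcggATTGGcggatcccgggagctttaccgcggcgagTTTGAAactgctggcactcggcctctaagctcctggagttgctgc
In GRCm38.p6 these lie at chr11:99024160-99024309 for Top2a, chr9:61946770-61946919 for Kif23, chr11:40733408-40733557 for Hmmr, chr1:189688057-189688206 for Cenpf, chr9:70421525-70421674 for Ccnb2 and chr10:69352883-69353032 for Cdk1, all on the minus strand. Ube2c lies at chr2:164769809-164769958 on the plus strand. The same letters thus stand in genes lower in the Npm1+/- arrays (Top2a) and in genes higher there (Ccnb2). Among the measured genes, the 27 with TTTGAA anywhere in the longer window had a median genotype difference of -0.34 in total RNA and -0.34 in polysome RNA, and the 8 with a window but no TTTGAA had 0.27 and 0.21. Of the 27, 22 were below 0 in total RNA and 21 in polysome RNA, and of the 8, 3 were below 0 in each. The 8 ran from -0.46 to 0.60 log2 in total RNA. The same split over all named genes was not made. Nusap1 and Pttg1, which are among the leading genes on the higher side, held neither motif in the window, and nor did Ncaph, which was lower.

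**Figure D1:**
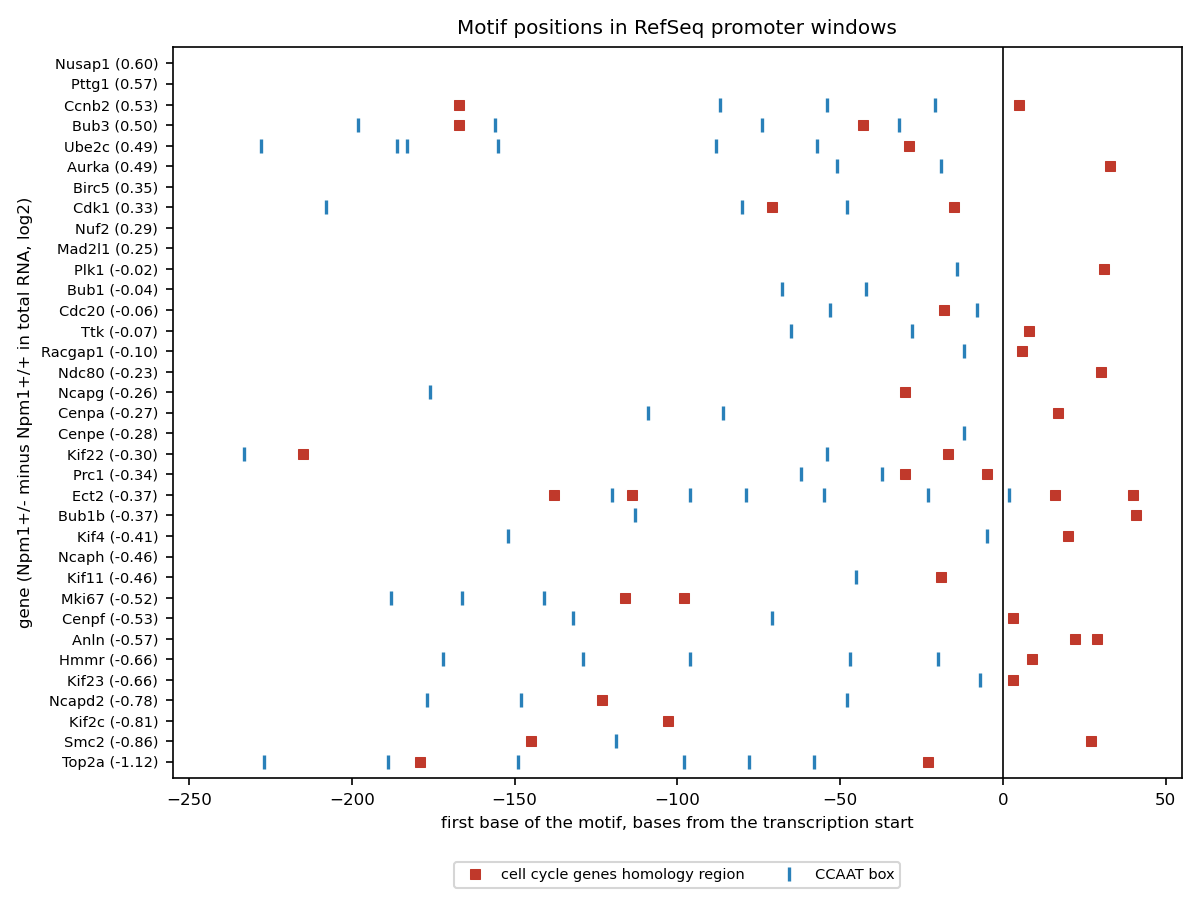
Positions of the CHR core (red squares) and the CCAAT box (blue bars), found on either strand, in the promoter window of the 35 measured genes that have one (horizontal axis, bases from the transcription start), ordered from the highest to the lowest genotype difference in total RNA, given in log2 beside each gene. For the 3 genes with more than 1 start all windows are drawn together. Red squares stand in 5 of the 10 genes above 0, Ccnb2, Bub3, Ube2c, Aurka and Cdk1, and in 22 of the 25 below 0.

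The mitosis and spindle genes were well measured. Their mean log2 signal had a median of 8.54 over the 43 genes, against 7.88 over all named genes, and 33 of the 43 had a mean at or above 7.53. Pttg1, the securin that restrains separase, was the brightest at 11.57, and Cenpe, a kinetochore motor, was the dimmest at 5.08. The median of the 43 genes was 8.15 on the Npm1+/- total array and 8.49 on the Npm1+/+ total array, and it was 8.20 and 8.60 on the polysome arrays. Over all named genes the same medians were 7.84 and 7.79 in total RNA, and 7.94 and 7.93 in polysome RNA. The mitotic set was thus lower in Npm1+/- for both kinds of RNA, and the median of all named genes was slightly higher. Signals of different probe sets depend on the probes as well as on the mRNA, so the order of brightness among genes is not an order of abundance.

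**Figure D2:**
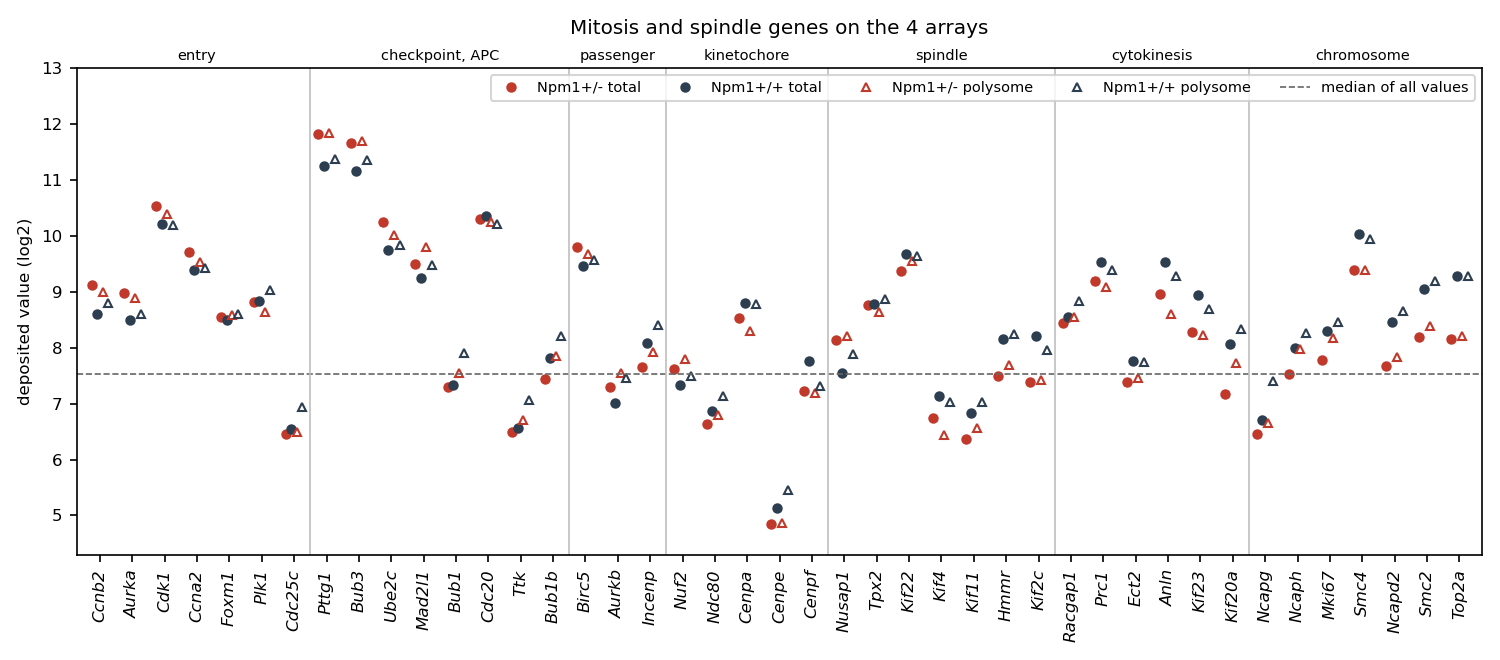
Deposited log2 signal (vertical axis) of the 43 measured genes, grouped by role, on the Npm1+/- (red) and Npm1+/+ (dark) arrays for total RNA (circles) and polysome RNA (triangles), with a dashed line at the median of all values, 7.53. Red points lie below dark ones throughout the cytokinesis and chromosome groups, and above them for Pttg1 and Bub3, the brightest genes.

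The first question was how the mitotic mRNAs differed with the Npm1 genotype in total RNA. The Npm1+/- minus Npm1+/+ difference was below 0 for 30 of the 43 genes and above 0 for 13, with a median of -0.26 log2 against 0.02 over all named genes. Of the 43, 18 (41.9%) were lower by more than the spread between probe sets and 9 (20.9%) were higher by more than it, against 13.5% and 22.7% of all named genes. At 2-fold, 1 of the 43 was lower, Top2a, where 0.879% of all named genes were, and 0 were higher, where 0.161% were. At 1.5-fold, 8 of the 43 were lower against a background of 3.96%: Top2a, Kif20a, Smc2, Kif2c, Ncapd2, Kif23, Hmmr and Smc4. At the same fold 1 was higher, Nusap1, against a background of 4.63%.

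The same comparison in polysome RNA asked whether the ribosome-bound mRNAs differed likewise. The difference was again below 0 for 30 genes and above 0 for 13, with a median of -0.31 log2 against 0.02 over all named genes. Here 25 of the 43 (58.1%) were lower by more than the spread between probe sets and 6 (14.0%) were higher, against 11.4% and 16.3% of all named genes. At 2-fold 1 gene was lower, Top2a (background 0.71%), and 0 were higher (background 0.0565%). At 1.5-fold 7 were lower against a background of 3.74%: Top2a, Ncapd2, Smc2, Ncapg, Anln, Kif20a and Cenpe. No member was 1.5-fold higher, where 1.32% of all genes were. In all, 29 of the 43 genes (67.4%) were lower in both kinds of RNA, against 34.5% of all named genes, and 12 (27.9%) were higher in both, against 41.1%. Of the remaining genes, Cdc20 was lower only in total RNA and Foxm1 lower only in polysome RNA, each by less than the spread between probe sets. At 1.5-fold, Top2a, Smc2, Ncapd2 and Kif20a were lower in both.

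**Figure D3:**
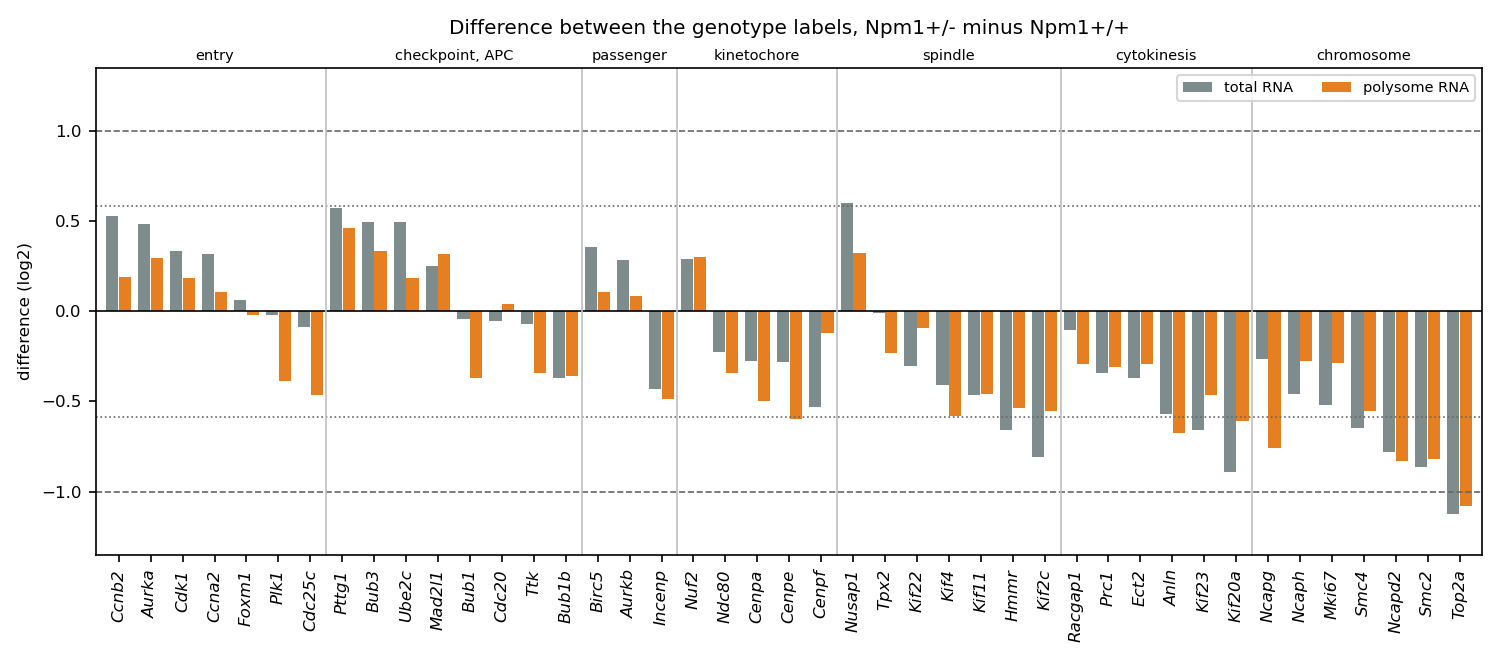
Npm1+/- minus Npm1+/+ difference in log2 signal (vertical axis) of each gene in total RNA (grey bars) and polysome RNA (orange bars), grouped by role, with dashed lines at 2-fold and dotted lines at 1.5-fold. Top2a lies beyond -1 for both kinds of RNA, and every bar of the cytokinesis and chromosome groups is below 0.

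The genes that compact and untangle chromosomes held the lowest group medians of the 7 role groups. All 7 of this group, which is topoisomerase II alpha, 5 condensin genes and Mki67, were lower in the Npm1+/- arrays for both kinds of RNA, with a median of -0.65 log2 in total RNA and -0.76 log2 in polysome RNA. Top2a encodes the topoisomerase that decatenates sister chromatids and read 8.15 in Npm1+/- against 9.27 in Npm1+/+ total RNA, and 8.20 against 9.28 in polysome RNA. That is 2.18-fold lower in total and 2.12-fold lower in polysome RNA. A dimmer Top2a probe set, below the 7.53 line on every array, did not show it: it read 5.57 against 5.47 in total RNA and 5.46 against 5.77 in polysome RNA.

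Condensin is the ring complex that folds mitotic chromosomes, made of an Smc2 and Smc4 pair with further subunits. Smc2 read 8.18 in Npm1+/- against 9.04 in Npm1+/+ total RNA and 8.38 against 9.20 in polysome RNA, which is 1.82-fold and 1.77-fold lower. Ncapd2, a condensin I subunit, read 7.68 against 8.46 in total RNA and 7.82 against 8.66 in polysome RNA, which is 1.72-fold and 1.78-fold lower. Both subunits thus stood apart by similar amounts in the total and in the ribosome-bound RNA.

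Smc4 read 9.39 in Npm1+/- against 10.04 in Npm1+/+ total RNA and 9.38 against 9.94 in polysome RNA, and all 3 of its probe sets were lower, by -0.31 to -0.65 log2 in total RNA and -0.38 to -0.55 log2 in polysome RNA. Ncapg, another condensin I subunit, read 6.45 against 6.72 in total RNA and 6.65 against 7.41 in polysome RNA, so that its difference was 1.20-fold in total RNA and 1.69-fold in polysome RNA. Its other probe set differed by -0.53 and -0.71 log2, so the size in total RNA depends on the probe set. Both Ncapg probe sets lay below the 7.53 line. Ncaph, the kleisin that closes the condensin I ring, read 7.53 against 7.99 in total RNA and 7.98 against 8.26 in polysome RNA. Outside the 43 genes, 2 condensin II genes lay within the spread between probe sets. Ncaph2 differed by 0.11 and 0.10 log2 in total and polysome RNA, and Ncapg2 by -0.09 and -0.12 log2. Mki67, which coats mitotic chromosomes and is widely used to mark cycling cells, read 7.78 against 8.30 in total RNA and 8.17 against 8.46 in polysome RNA.

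The genes of cytokinesis were also lower as a group. All 6 were below 0 in both comparisons, with a median of -0.47 log2 in total RNA and -0.39 log2 in polysome RNA. Kif20a, the central spindle kinesin that carries Plk1 to the midzone, read 7.16 in Npm1+/- against 8.06 in Npm1+/+ total RNA and 7.72 against 8.33 in polysome RNA. Its difference was 1.86-fold in total and 1.53-fold in polysome RNA. Kif23 forms centralspindlin with Racgap1, and the partners differed unequally. Kif23 read 8.28 against 8.95 in total RNA and 8.23 against 8.69 in polysome RNA, which is 1.58-fold and 1.38-fold lower. Racgap1 differed by -0.10 log2 in total RNA, within the spread between probe sets, and by -0.29 log2 in polysome RNA.

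Anln encodes anillin, the scaffold of the contractile ring. It read 8.95 in Npm1+/- against 9.52 in Npm1+/+ total RNA and 8.61 against 9.28 in polysome RNA, a difference of -0.57 and -0.67 log2. Prc1, which bundles the antiparallel microtubules of the midzone, differed by -0.34 and -0.31 log2 in total and polysome RNA. Ect2, the exchange factor that activates RhoA at the cleavage furrow, differed by -0.37 and -0.29 log2.

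Among the 7 motors and spindle assembly factors, 6 were lower and Nusap1 was higher. The group's median was -0.41 log2 in total RNA and -0.46 log2 in polysome RNA, the second being -0.23 among those with a mean at or above 7.53. Kif2c is the microtubule depolymerase that corrects wrong attachments. It read 7.39 in Npm1+/- against 8.20 in Npm1+/+ total RNA and 7.41 against 7.96 in polysome RNA. Its fold was 1.75 in total and 1.46 in polysome RNA, and its next brightest probe set read 7.51 against 7.75 and 7.35 against 7.94, so the size in total RNA depends on the probe set. Hmmr, a microtubule-binding protein of spindle poles, differed by -0.66 log2 in total RNA and read 7.70 against 8.24 in polysome RNA. All 4 Hmmr probe sets were lower in Npm1+/-, by -0.35 to -0.76 log2 in total RNA and by -0.48 to -1.02 log2 in polysome RNA.

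Kif11 is the bipolar kinesin that pushes spindle poles apart. It read 6.36 in Npm1+/- against 6.83 in Npm1+/+ total RNA and 6.57 against 7.03 in polysome RNA, 1.38-fold and 1.37-fold lower. Kif4, a chromosome-bound kinesin, read 6.73 against 7.14 in total RNA and 6.45 against 7.03 in polysome RNA, where its difference of -0.58 log2 just missed the 1.5-fold line. Kif22, another chromokinesin, differed by -0.30 and -0.09 log2, and Tpx2, the activator of Aurora A on the spindle, by -0.01 and -0.23 log2. Nusap1, which binds spindle microtubules near chromosomes, went the other way: it read 8.14 in Npm1+/- against 7.54 in Npm1+/+ total RNA and 8.20 against 7.88 in polysome RNA, 1.52-fold and 1.25-fold higher. A dimmer Nusap1 probe set differed by -0.04 log2 in both.

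Kinetochore genes were mostly lower. Of 5, 4 were below 0 in both comparisons, with a median of -0.27 log2 in total RNA and -0.34 log2 in polysome RNA, which were 0.01 and -0.10 among those with a mean at or above 7.53. Cenpa, the histone H3 variant that marks centromeres, read 8.53 in Npm1+/- against 8.81 in Npm1+/+ total RNA and 8.29 against 8.79 in polysome RNA. Cenpf, a large outer kinetochore protein, read 7.23 against 7.76 in total RNA but 7.18 against 7.31 in polysome RNA, 1.45-fold and 1.09-fold lower. A dimmer Cenpf probe set differed by -0.25 and 0.07 log2. Cenpe read 4.85 against 5.14 in total RNA and 4.86 against 5.46 in polysome RNA, all below the 7.53 line, so its 1.52-fold difference in polysome RNA rests on a dim probe set. The Ndc80 complex binds microtubule ends, and its 2 subunits among these 5 genes went opposite ways. Both differences lay within the spread between probe sets in total RNA and slightly beyond it in polysome RNA. Ndc80 differed by -0.23 and -0.34 log2 in total and polysome RNA, on a probe set below the 7.53 line on every array. Nuf2 read 7.62 in Npm1+/- against 7.33 in Npm1+/+ total RNA and 7.79 against 7.49 in polysome RNA, a difference of 0.29 and 0.30 log2. Spc25, a further subunit outside the 43 genes, was also higher, at 8.63 against 8.05 in total RNA and 8.77 against 8.41 in polysome RNA.

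The cyclins and kinases of mitotic entry were mostly on the higher side in total RNA, by an amount that depended on the scaling. Their median over 7 genes was 0.32 log2 in total RNA, with 5 above 0 and 2 below, against 0.18 with quantile scaling and 0.08 after subtracting a loess trend on level. It was 0.20 over all named genes with a mean at or above 7.53. In polysome RNA the median was 0.11 log2, with 4 above and 3 below, and -0.03 after subtracting that trend. Ccnb2, a mitotic cyclin, read 9.13 in Npm1+/- against 8.60 in Npm1+/+ total RNA and 8.99 against 8.80 in polysome RNA, 1.44-fold and 1.14-fold higher. Aurka, the centrosomal Aurora kinase, read 8.98 against 8.49 in total RNA and 8.89 against 8.59 in polysome RNA, 1.40-fold and 1.22-fold higher. In both of these genes the difference in total RNA was larger than the spread between probe sets.

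Cdk1, the mitotic cyclin-dependent kinase, read 10.53 in Npm1+/- against 10.20 in Npm1+/+ total RNA and 10.38 against 10.20 in polysome RNA. Ccna2, the cyclin of S phase and early mitosis, read 9.70 against 9.38 and 9.54 against 9.43. Foxm1, a transcription factor of G2 and M genes, differed by 0.06 log2 in total RNA and -0.02 log2 in polysome RNA, where its next probe sets, above the 7.53 line, were at 0.05. Plk1, which drives centrosome maturation and cytokinesis, read 8.82 against 8.84 in total RNA but 8.64 against 9.02 in polysome RNA. Cdc25c, the phosphatase that activates Cdk1, had the same pattern at 6.46 against 6.55 in total RNA and 6.48 against 6.95 in polysome RNA. For Plk1 and Cdc25c the genotype difference was therefore larger than the spread between probe sets in polysome RNA and within it in total RNA.

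The spindle checkpoint and anaphase genes were mixed. Of 8, 4 were above 0 in total RNA and 5 in polysome RNA, with a median of 0.11 log2 in both. Over the alternatives that median ran from 0.02 to 0.37 in total RNA and from -0.04, after subtracting a loess trend on level, to 0.25 in polysome RNA. Securin, Pttg1, read 11.82 in Npm1+/- against 11.24 in Npm1+/+ total RNA and 11.84 against 11.38 in polysome RNA, 1.49-fold and 1.38-fold higher. Its next brightest probe set differed by 0.61 and 0.17 log2, and the dimmest, below the 7.53 line, by -0.13 and -0.38 log2. Bub3, which docks checkpoint proteins on kinetochores, read 11.66 against 11.16 in total RNA and 11.69 against 11.36 in polysome RNA. Its next brightest probe set differed by 0.33 and 0.42 log2, in the same direction, while 2 dim ones differed by -0.27 and -0.16 log2 in total RNA and by -0.12 and -0.08 log2 in polysome RNA.

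Ube2c, the ubiquitin-conjugating enzyme that works with the anaphase-promoting complex, read 10.24 in Npm1+/- against 9.75 in Npm1+/+ total RNA and 10.02 against 9.84 in polysome RNA. Mad2l1, the checkpoint protein that sequesters Cdc20, read 9.49 against 9.24 and 9.79 against 9.47. Bub1b, part of the mitotic checkpoint complex, was lower, at 7.44 against 7.81 in total RNA and 7.85 against 8.20 in polysome RNA. The checkpoint kinase Bub1 read 7.30 against 7.34 in total RNA and 7.54 against 7.91 in polysome RNA, and Ttk, the kinase that starts checkpoint signalling, differed by -0.07 and -0.34 log2. Cdc20, the activator of the anaphase-promoting complex, differed by -0.06 and 0.04 log2, and its other probe sets, both above the 7.53 line, had the opposite signs.

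The chromosomal passenger complex corrects kinetochore attachments and guides cleavage. Its 3 measured members did not move together. Incenp, the scaffold, read 7.65 in Npm1+/- against 8.08 in Npm1+/+ total RNA and 7.92 against 8.41 in polysome RNA, and all 3 of its probe sets were lower, by -0.33 to -0.44 and -0.49 to -0.54 log2. Birc5, which encodes survivin, read 9.80 against 9.45 in total RNA and 9.67 against 9.56 in polysome RNA. Aurkb, the kinase, read 7.29 against 7.01 and 7.54 against 7.45. The scaffold was thus lower by more than the spread between probe sets, while Birc5 was higher by more than it in total RNA and the kinase lay within it.

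Gene span and signal level differed between the genes above and below 0. Span is the length of the gene in the RefSeq annotation, introns included, and not the length of the mRNA. The 30 genes below 0 in total RNA had a median span of 30707.5 bases, and the 13 above 0 had 11529 bases. Over the 43 genes, Spearman's rho between span and the genotype difference came to -0.46 for total RNA and -0.46 for polysome RNA, against -0.02 and 0.01 over 12378 named genes. The lower genes were also dimmer, with a median mean signal of 7.98 against 9.50, and rho between level and difference was 0.33 and 0.43 over the 43 genes against 0.32 and 0.24 over all named genes. These are correlations across genes measured on the same arrays and not over samples, and the part of either quantity in the differences was not tested.

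Other genes of the same machinery give the setting. The 54 other genes of mitosis on a wider list had a median of 0.04 log2 in total RNA, with 29 above 0 and 25 below (-0.04 after quantile scaling and -0.09 after a loess trend), and -0.05 log2 in polysome RNA, with 22 above and 32 below. At 1.5-fold, 2 of the 54 were higher and 3 lower in total RNA (background 4.63% and 3.96%), and 3 were lower in polysome RNA (background 3.74%), which is near the background. Ckap5, a microtubule polymerase, read 7.99 in Npm1+/- against 8.87 in Npm1+/+ total RNA and 8.04 against 8.94 in polysome RNA. Spag5, a spindle pole protein, read 6.05 against 6.52 in total RNA and 5.84 against 6.95 in polysome RNA, the only one of the 54 past 2-fold in either. Trip13, which recycles the checkpoint complex, was on the higher side at 8.60 against 7.92 in total RNA and 8.66 against 8.17 in polysome RNA.

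Of 14 genes of the anaphase-promoting complex, which are subunits and the coactivator Fzr1, 11 were below 0 in each kind of RNA, against 5826 and 5592 of 12394 named genes. Fzr1 was not among the 11. The median of the 14 was -0.37 log2 in total RNA and -0.46 log2 in polysome RNA. At 1.5-fold, 3 and 4 of them were lower (background 3.96% and 3.74%). Anapc2, the cullin of the complex, read 9.55 in Npm1+/- against 10.34 in Npm1+/+ total RNA and 9.64 against 10.48 in polysome RNA. Cdc27, a scaffold subunit, read 6.63 against 7.30 in total RNA and 7.16 against 7.66 in polysome RNA. Cohesin, the ring that holds sister chromatids together, had a median of -0.18 and -0.20 log2 over 9 genes, and -0.34 and -0.30 log2 after subtracting a loess trend on level. Its 2 core SMC subunits were both lower, Smc1a at 8.72 against 9.37 in total RNA and 9.03 against 9.76 in polysome RNA. Smc3 read 9.02 against 9.63 and 9.17 against 9.69. Rad21 of the same list read 10.22 on both total arrays and 10.22 against 10.02 in polysome RNA. Esco1 was higher, by 0.48 and 0.17 log2. Of the 9 genes, 6 were below 0 in each kind of RNA.

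As deposited, regulators of the G2 and M genes had medians near those of the brighter genes and above those of all named genes. Of 17 genes of the MuvB, E2F and NF-Y group, 15 were above 0 in total RNA and 14 in polysome RNA, with medians of 0.22 and 0.13 log2. Over the 6769 named genes with a mean at or above 7.53, 4543 and 4301 were above 0, with medians of 0.20 and 0.11 log2. Of the 17 regulators, 10 reached that mean, with medians of 0.21 and 0.13 log2. Over all named genes both medians were 0.02 log2. After subtracting a loess trend on level, the 17 kept a total RNA median of 0.16 log2, while their polysome median fell to 0.01 log2. The medians of all named genes were then -0.004 and -0.006 log2. Quantile scaling gave 0.18 and 0.12 log2 for the 17. Rbl2, the p130 pocket protein that represses cell cycle genes in resting cells together with MuvB, read 7.79 in Npm1+/- against 6.95 in Npm1+/+ total RNA and 7.91 against 7.42 in polysome RNA. Of 9 CDK inhibitors and p53 pathway genes, 8 were above 0 in both kinds of RNA, with medians of 0.45 and 0.17 log2, which were 0.28 and 0.02 after subtracting that trend. Cdkn1b, the CDK inhibitor p27, read 9.93 against 9.23 in total RNA and 9.84 against 9.25 in polysome RNA. Cdkn1a, the p53 target p21, read 13.32 against 12.73 and 13.36 against 12.93.

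**Figure D4:**
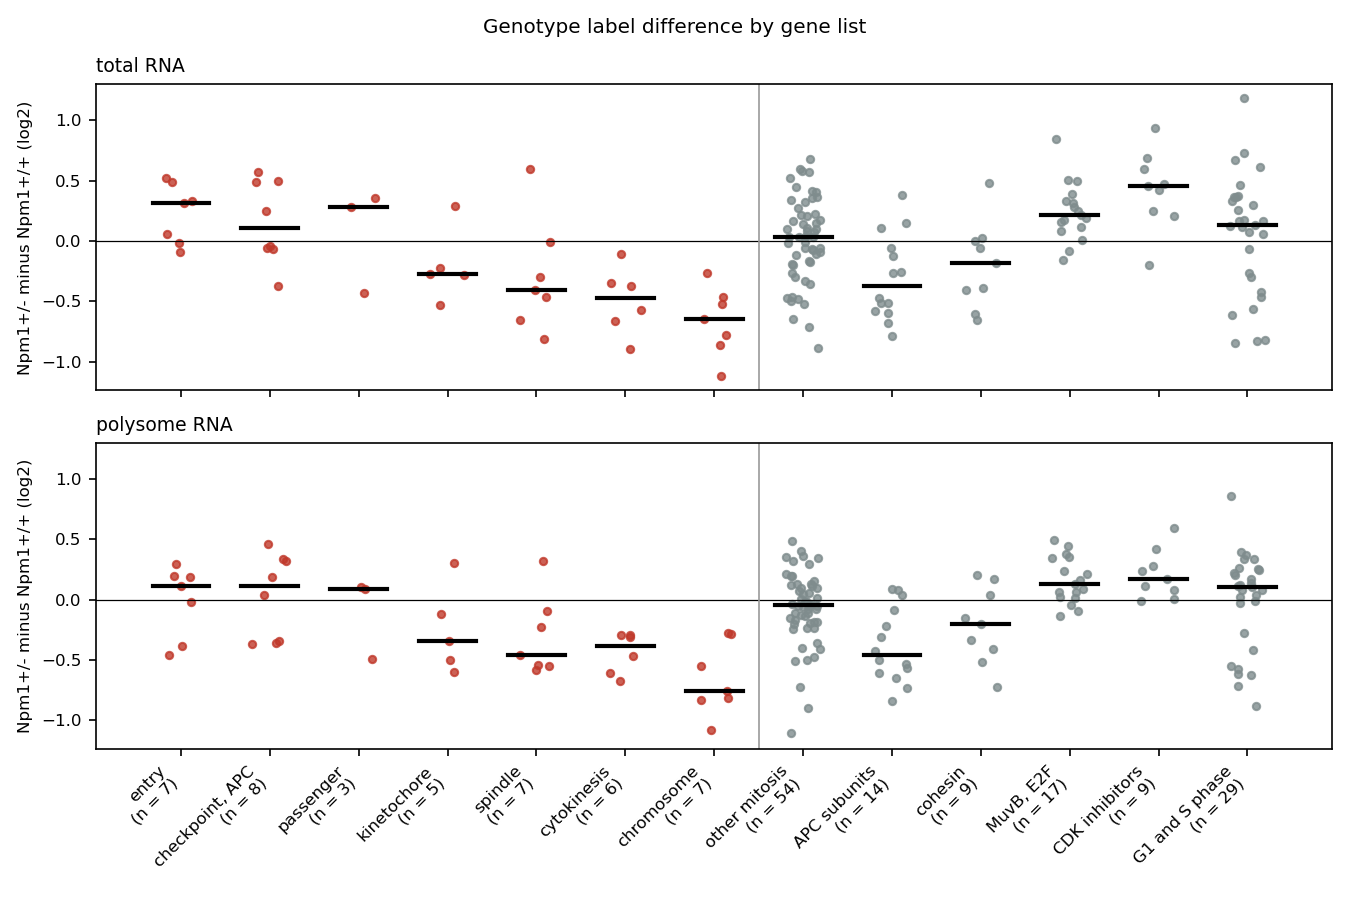
Npm1+/- minus Npm1+/+ difference in log2 signal (vertical axis) of each gene (points) with the median of its list (black lines), in total RNA above and polysome RNA below; red marks the role groups of the mitosis and spindle genes and grey the other lists. In total RNA the medians run from -0.65 for the chromosome genes to 0.45 for the CDK inhibitors.

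The last question was how the mitotic mRNAs were spread between ribosome-bound and total RNA. The exact signal value of a probe set was shared between the 2 total arrays at 355 probe sets and between the 2 polysome arrays at 496, and at 0 for any total and polysome pair, so the 2 kinds of RNA may have been normalised in separate runs, and levels set across them carry that limit. Marker genes of macrophages differed more with the fraction than with the genotype label. Their median polysome minus total difference over 14 genes was 0.57 log2 in Npm1+/- and 0.66 log2 in Npm1+/+. At or above the 7.53 line were 9 of the 14 in polysome RNA and 3 in total RNA of Npm1+/-, and 7 and 3 in Npm1+/+. Their part in the fraction differences was not tested. The median polysome minus total difference of the 43 mitotic genes was 0.03 log2 in Npm1+/-, against 0.05 over all named genes, and 0.15 log2 in Npm1+/+, against 0.09. In Npm1+/- it turned to between -0.070 and -0.026 under the 3 other scalings tried. In Npm1+/+ the members' median was at 0.11 against 0.14 among genes with a mean at or above 7.53, and at 0.01 against 0.01 after subtracting a loess trend, so no difference from all genes held across settings. None of the 43 reached 2-fold in either direction, where 0.411% of all genes were higher and 0.355% lower in Npm1+/-, and 0.476% and 0.379% in Npm1+/+.

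At 1.5-fold, 0 of the 43 were higher in polysome RNA of Npm1+/- (background 3.05%) and 0 lower (background 2.07%). In Npm1+/+ 0 were lower (background 2.98%) and 1 was higher (background 3.87%), Ncapg, at 7.41 in polysome RNA against 6.72 in total RNA. Its other probe set, dimmer still, differed by 0.35 log2 there, short of 1.5-fold. In Npm1+/- Ncapg read 6.65 in polysome RNA against 6.45 in total RNA. Kif20a had the largest difference in Npm1+/-, at 7.72 in polysome RNA against 7.16 in total RNA, followed by Ncaph at 7.98 against 7.53, although the other Ncaph probe set went the other way at 7.01 against 7.22. Anln had the lowest, at 8.61 against 8.95, followed by Kif4 at 6.45 against 6.73. In Npm1+/+ the lowest was Cenpf, at 7.31 in polysome RNA against 7.76 in total RNA, followed by Kif23 at 8.69 against 8.95, and next to Ncapg on the higher side stood Bub1 at 7.91 against 7.34. A dimmer Cenpf probe set differed by only -0.01 log2 in Npm1+/+, and a dimmer Bub1 probe set went the other way, at -0.24 log2.

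**Figure D5:**
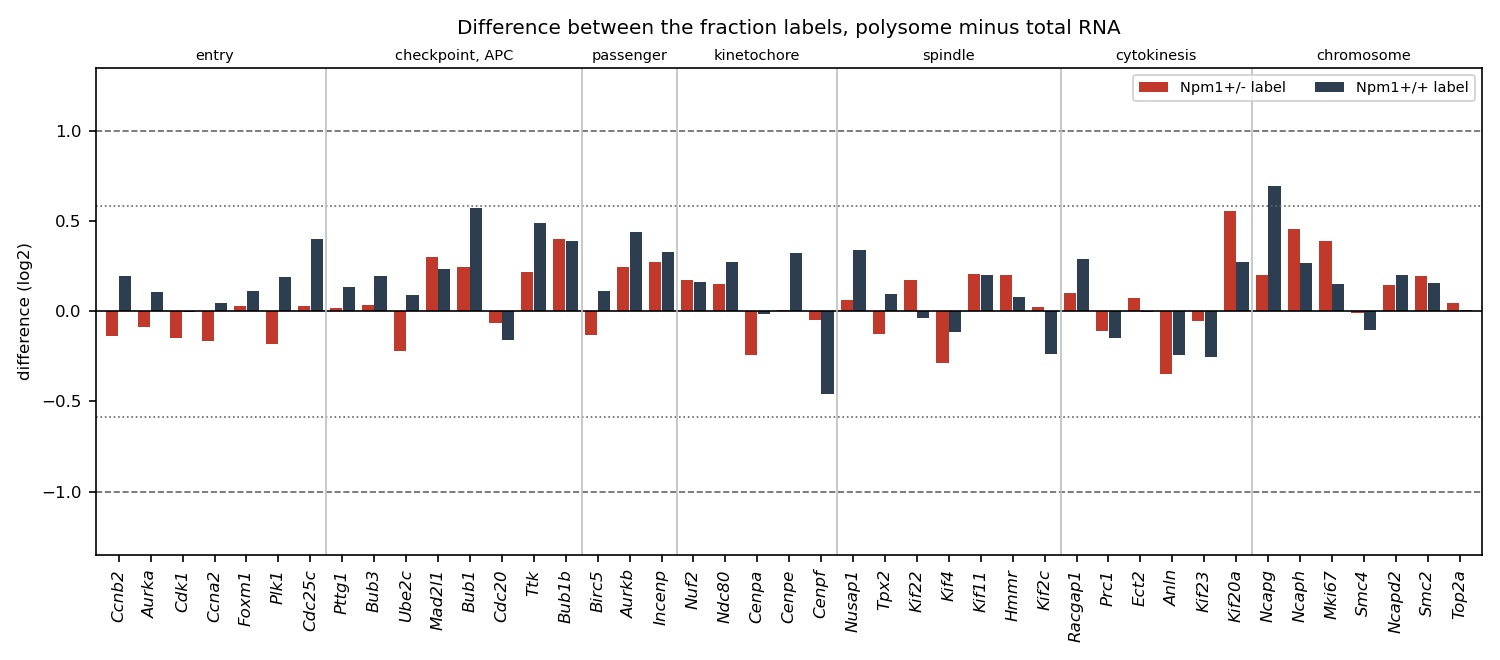
Polysome minus total RNA difference in log2 signal (vertical axis) of each gene on the Npm1+/- (red bars) and Npm1+/+ (dark bars) arrays, grouped by role, with dashed lines at 2-fold and dotted lines at 1.5-fold. Ncapg in Npm1+/+ is the only bar past a dotted line, and no bar reaches a dashed one.

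The polysome minus total difference of Npm1+/- less that of Npm1+/+ compares ribosome association between the genotypes. Its median over the 43 genes was -0.10 log2, against -0.03 over all named genes, with 25 genes below 0 and 18 above. Among genes with a mean at or above 7.53 the order turned, at -0.05 for 33 members and -0.07 for all. No member reached 1.5-fold, where 0.266% of all genes were higher and 0.137% lower. By more than the spread between probe sets of 0.22 log2, 12 of the 43 (27.9%) were lower and 4 (9.30%) higher, against 14.1% and 11.3% of all named genes. The 12 include Plk1 and Cdc25c at -0.37, Ccnb2 at -0.33, Bub1 at -0.33, Ube2c at -0.31 and Ncapg at -0.50 log2, where the other Ncapg probe set was at -0.18, within that spread. All 7 genes of mitotic entry were below 0, with a median of -0.21 log2, where 6996 of all 12394 named genes were below 0, and 4601 of the 6769 with a mean at or above the 7.53 line. The chromosome genes had a median of 0.04, which was -0.02 with the mean of a gene's probe sets, and the cytokinesis genes had 0.06, which was -0.01 without possibly cross-hybridising probe sets. For the entry genes above 0 in total RNA, such as Ccnb2, this means a smaller excess in the Npm1+/- polysome array than in the Npm1+/- total array. On the positive side stood Cenpf at 0.41 and Kif20a at 0.28 log2.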

How the data were processed

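Deposited values were log2 signals made by the authors with RMA in affy 1.56.0 under R 3.4.3, per the submitters' processing notes, for 22690 probe sets. No source used here says whether total and polysome arrays were processed together. Probe sets were named from the platform's annotation, and 691 that list several genes were not used. For each gene the probe set brightest on average was kept, with no filter on low values. Differences of log2 values were computed per gene and counted at 2-fold and 1.5-fold, with all 12394 named genes as background, and the code was tested on simulated data. Values on all 4 arrays are given at least for the 3 members with the largest difference each way in each genotype comparison, the largest in each role group, and the 2 largest each way in each fraction comparison, with up to 4 genes of each other list. The members, lists and rules were chosen with earlier results of these data known. The lists were not tested. Motifs were searched on both strands of RefSeq promoter windows, and 8 members had none. The number of arrays limits the precision, since each group has 1.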

Additional observations from a re-analysis of the deposited data

How the results depend on the processing

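The median genotype difference of the mitosis and spindle genes stayed below 0 under every alternative run: averaging a gene's probe sets, dropping those whose names mark possible cross-hybridisation, a floor at the median signal, centring, quantile and loess scaling. In total RNA it moved to -0.20 with quantile scaling, and in polysome RNA to -0.36 with loess. The median of all genes in total RNA was 0.20 with the floor and 0.02 without it, and centring moved it in the fraction comparisons, to -0.05 from 0.05 in Npm1+/- and to -0.03 from 0.09 in Npm1+/+. Relative to the median of all genes under the same setting, the members' median differed by -0.22 to -0.47 in total RNA and by -0.31 to -0.40 in polysome RNA. Counts of members 2-fold lower in total RNA were 0 with the mean of probe sets, 2 with loess, 8 at a 1.5-fold call and 0 at 3-fold; in polysome RNA they were 0 with the mean, 7 at 1.5-fold and 0 at 3-fold. In total RNA 4 were 1.5-fold lower with the mean, and 1 was higher when 2-fold was replaced by 1.5-fold. Those 1.5-fold higher numbered 0 with the mean, quantile or loess and 2 without cross-hybridising probe sets. The fraction medians did not hold their size, and the one of Npm1+/- did not hold its sign. In Npm1+/- the median was -0.070 centred, -0.026 with quantile and -0.034 with loess, and in Npm1+/+ it was 0.035 centred, 0.025 with quantile and 0.0054 with loess. In Npm1+/+ 1 member was higher at a 1.5-fold call, and 0 were with the mean, the floor or centring. The association median was -0.17 without cross-hybridising probe sets, -0.052 with the floor (all genes -0.075), -0.034 with quantile and -0.037 with loess. The cause of these changes was not tested. The chromosome, cytokinesis and spindle groups stayed below 0 in both genotype comparisons under all of these settings. The entry group was at -0.03 and the checkpoint group at -0.04 in polysome RNA with loess, the passenger group was between -0.22 and -0.03 in polysome RNA under 3 settings and -0.04 in total RNA with the floor, and the kinetochore group was 0.01 in total RNA with the floor. The relation to protein length could not be run, and gene span was used in its place after the data were seen. No paired analysis was possible because each group has 1 array.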

Other observations

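Genes of DNA replication and the G1 to S transition, which precede mitosis, did not share 1 direction. Of 29 such genes, 19 were above 0 and 10 below in both total and polysome RNA, with medians of 0.13 and 0.11 log2, which were 0.08 and close to 0 after subtracting a loess trend on level. At 1.5-fold, 4 were higher and 4 lower in total RNA (background 4.63% and 3.96%), and 1 was higher and 4 lower in polysome RNA (background 1.32% and 3.74%). Rrm1, the large subunit of ribonucleotide reductase, read 9.05 in Npm1+/- against 9.88 in Npm1+/+ total RNA and 9.27 against 10.15 in polysome RNA. The helicase subunits Mcm4 and Mcm3 differed by -0.85 and -0.82 log2 in total RNA and by -0.72 and -0.61 log2 in polysome RNA. On the higher side, Cdk6, a G1 kinase, read 6.76 against 5.57 in total RNA and 6.90 against 6.03 in polysome RNA. Gmnn, the inhibitor of origin licensing that the anaphase-promoting complex degrades, differed by 0.73 and 0.39 log2.

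Cdkn2a, which encodes p16 and p19Arf, differed between the kinds of RNA. It read 8.65 in Npm1+/- against 7.71 in Npm1+/+ total RNA and 8.72 against 8.64 in polysome RNA. Its association difference was -0.85 log2, where 0.137% of all genes were 1.5-fold lower. Arf is known to bind nucleophosmin in the nucleolus. With 1 array a group these values have no replicate check.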
